A study of Mus musculus with 9 samples.

Results

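Chemokine and trafficking receptor transcripts were examined in tumor-infiltrating CD8+ T cells as 9 genes listed by name, of 32976 genes counted. They were 3 chemokines (Ccl5, Ccl4 and Ccl3) and 6 receptors (Cxcr6, Cxcr3, Cxcr4, Ccr2, Cx3cr1 and S1pr1), found by matching Ensembl identifiers to mouse symbols, and all 9 had a line in each deposited table. The cells came from wildtype BALB/c mice carrying subcutaneous CT26.WT tumors, a mouse colorectal carcinoma line. All mice had received the PD-1 antibody RMP1-14 on days 3, 6 and 9 after implantation, so no group was without treatment. CD8+CD44+ cells binding tetramers of GSW11, a peptide of the tumor's gp70 antigen, were sorted by strength of tetramer staining. TetHighProg held high avidity cells from progressing tumors, TetLowReg low avidity cells from regressing tumors and TetLowProg low avidity cells from progressing tumors, with 3 bulk Smart-seq2 libraries each. As the study describes the sort, TetHighProg and TetLowProg cells came from the same set of progressing tumors, but the labels link no library to a tumor, so the tests treat these libraries as independent. The labels give no age of the mice, and replicate numbers are those of the labels.

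Chemokines are small secreted proteins that guide leukocytes through G protein-coupled receptors on the cells that respond. Activated and memory CD8+ T cells secrete CCL3, CCL4 and CCL5, while their own receptors set where they go: CXCR3 and CXCR6 mark effector and tissue-resident T cells in inflamed tissue and tumors, and CX3CR1 marks circulating effector cells. S1PR1 senses sphingosine 1-phosphate and lets T cells leave tissue and lymph nodes, and its loss is a known feature of resident memory cells.

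Between 16405306 and 36429515 reads per library fell on genes. The libraries TetHighProg 1 and 2, TetLowReg 6 and TetLowProg 10 held 599 to 1298 genes with at least 10 counts, whereas the other 5 libraries held 3181 to 8071. The first 4 are called the libraries with few genes. A gene counted as found at 10 counts. Cd8b1, which encodes a chain of the CD8 coreceptor used in the sort, was found in 8 libraries and had 8 counts in TetLowReg replicate 6, which in turn held 47022 counts of Cd8a. Cd8a was at 0 in TetHighProg replicates 1 and 2 and in TetLowProg replicate 10. Of 17 T cell markers, 5 to 14 were found per TetHighProg library, 8 to 16 per TetLowReg library and 7 to 17 per TetLowProg library. B cell markers, including Cd79b and Ms4a1, were found in TetLowReg replicates 7 and 8 and TetLowProg replicate 12, 3 libraries sorted as CD8+ cells. In a bulk library, fewer cells of a type cannot be told apart from less RNA per cell. Smart-seq2 amplifies cDNA by PCR without molecular identifiers, so each interval or limit from counts given here covers counting error only.

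The members were patchy rather than uniformly present. Of the 81 member values (9 genes in 9 libraries), 29 reached 10 counts, 5 lay between 1 and 9 and 47 were 0. Cxcr4 was found in 6 libraries, S1pr1 in 5, Ccl4, Ccl5 and Cxcr6 in 4, Ccr2 in 3, Cxcr3 in 2 and Ccl3 in 1, and Cx3cr1 was found in none. The libraries with few genes held 1 of the 29, the Cxcr4 count of TetLowProg replicate 10, out of 36 values, whereas the other libraries held 28 of 45. A total of 4872 genes of the tables were found in exactly 1 library and 19603 in none.

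**Figure D1:**
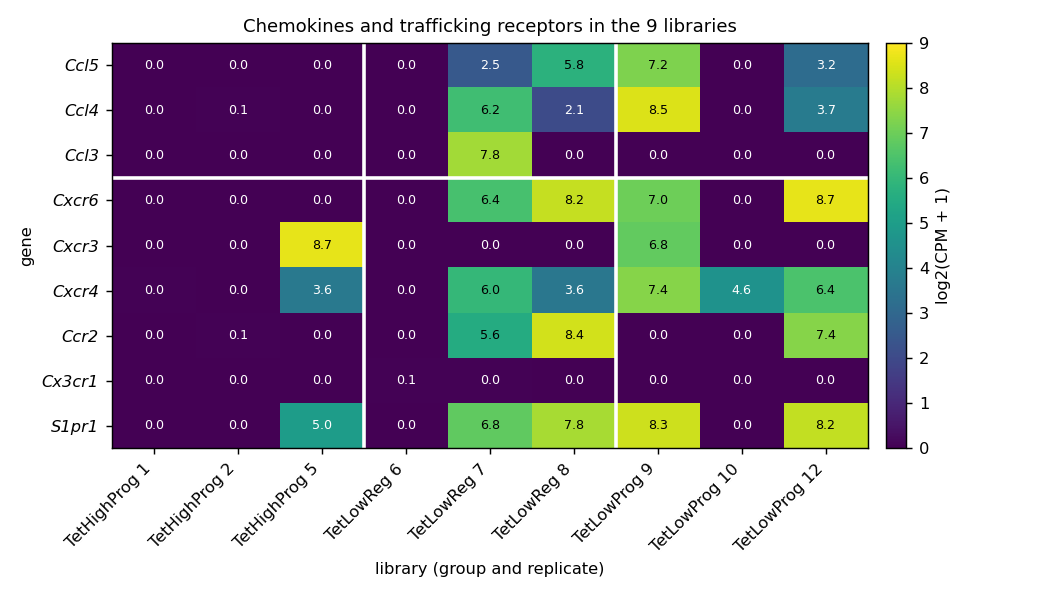
Level of each member (rows) in each library (columns) as log2(CPM + 1), where CPM is counts per 1000000 gene counts, with chemokines above the white line and receptors below it. Ccl4, Ccl5 and Cxcr6 share the same 4 libraries, Cxcr3 stands in TetHighProg 5 and TetLowProg 9, and the columns of the 4 libraries with few genes are near 0 except for Cxcr4 in TetLowProg 10.

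The promoters of 4 members whose transcripts occupied different libraries are printed to place them beside those patterns. Each sequence is the 250 bases before the transcription start in RefSeq (build GRCm38.p6), read 5′ to 3′ on the strand of the gene. Cxcr6 (chr9:123806227-123806476, plus strand) was found in 4 libraries and Cxcr3 (chrX:101734148-101734397, minus strand) in 2. Ccr2 (chr9:124101933-124102182, plus strand) was found in 3 libraries and Ccl3 (chr11:83649379-83649628, minus strand) in 1. Capitals mark matches to a motif on either strand.
Cxcr6: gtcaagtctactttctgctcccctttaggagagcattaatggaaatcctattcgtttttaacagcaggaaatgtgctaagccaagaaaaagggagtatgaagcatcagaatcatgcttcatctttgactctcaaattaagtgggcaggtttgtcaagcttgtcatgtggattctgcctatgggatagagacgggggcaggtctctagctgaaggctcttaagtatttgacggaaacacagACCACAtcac
Cxcr3: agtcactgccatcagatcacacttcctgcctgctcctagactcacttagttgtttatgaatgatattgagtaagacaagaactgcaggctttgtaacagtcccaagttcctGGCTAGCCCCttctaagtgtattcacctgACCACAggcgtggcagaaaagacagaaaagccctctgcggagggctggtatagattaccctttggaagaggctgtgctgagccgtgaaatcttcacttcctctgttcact
Ccr2: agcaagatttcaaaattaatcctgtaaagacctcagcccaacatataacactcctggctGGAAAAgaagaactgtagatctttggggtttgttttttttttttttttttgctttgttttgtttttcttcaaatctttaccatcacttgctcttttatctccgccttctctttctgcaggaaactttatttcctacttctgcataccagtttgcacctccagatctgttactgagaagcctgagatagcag
Ccl3: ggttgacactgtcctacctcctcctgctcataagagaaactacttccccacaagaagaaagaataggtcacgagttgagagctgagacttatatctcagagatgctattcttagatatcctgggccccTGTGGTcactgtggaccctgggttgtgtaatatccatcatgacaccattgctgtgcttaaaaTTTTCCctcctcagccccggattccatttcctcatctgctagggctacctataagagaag

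Positions of matches are those of the first base, counted back from the start. The RUNX core TGTGGT matched at -10 in Cxcr6, -110 in Cxcr3 and -122 in Ccl3, and is held by 14.0% of 32851 mouse promoters of this length. The NFAT letters GGAAAA matched at -191 in Ccr2 and -60 in Ccl3, with 20.4% of promoters holding them. The NF-kB letters, GGG and CC with any 5 bases between them, matched at -139 in Cxcr3 and are held by 45.8% of promoters. In none of these 4 windows were the AP-1 letters TGANTCA (6.75% of promoters), the T-box letters AGGTGTGA (1.12%) or the STAT letters TTCNNNGAA (7.02%) present, and no matches overlapped. A match describes letters, not binding. Of the other members, Cx3cr1 held the NF-kB letters at -174 and the RUNX core at -54 and Cxcr4 held none of the 6 motifs. Ccl4, Ccl5 and S1pr1 had no entry in the promoter table.

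Ccl5, a chemokine that attracts T cells and monocytes (build GRCm39, chr11:83416602-83425942, minus strand), was found only in low avidity libraries. It was at 0 counts in all 3 TetHighProg libraries. TetLowReg replicates 6, 7 and 8 held 0, 173 and 896 counts, or 0, 4.75 and 54.6 CPM. TetLowProg replicates 9, 10 and 12 held 5467, 0 and 255 counts, or 150, 0 and 8.09 CPM. All groups touched at 0, so no pair of groups was separated. Each sum rested on 1 library, since TetLowReg replicate 8 held 896 of the 1069 Ccl5 counts of its group and TetLowProg replicate 9 held 5467 of 5722.

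Ccl4, a chemokine of activated T cells (chr11:83553383-83555509, plus strand), followed the same libraries at different levels. TetHighProg replicates 1, 2 and 5 held 0, 1 and 0 counts. TetLowReg replicates 6, 7 and 8 held 0, 2696 and 52 counts, or 0, 74.0 and 3.17 CPM. TetLowProg replicates 9, 10 and 12 held 13474, 0 and 389 counts, or 371, 0 and 12.3 CPM. Replicates 7 and 9 were high and replicates 8 and 12 low. Ccl5 differed from Ccl4 here, since in TetLowReg its higher value was in replicate 8. Replicate 7 held 2696 of the 2748 Ccl4 counts of TetLowReg, and replicate 9 held 13474 of the 13863 of TetLowProg. TetLowProg replicate 9, the library with the highest Ccl4 and Ccl5, also had the highest sum of 6 NK cell markers, 45.3 CPM against 0 in all TetHighProg libraries, 0 to 4.88 CPM in TetLowReg and 0 in the other TetLowProg libraries. That sum came from Klre1 alone (1646 counts), with the defining NK markers Ncr1 and Klrb1c at 0 in every library.

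Ccl3, which binds CCR1 (chr11:83538670-83540191, minus strand), was found in TetLowReg replicate 7 alone, at 7838 counts or 215 CPM. It was at 0 in the other 8 libraries, so that both other groups and the remaining TetLowReg libraries coincided. TetLowReg replicate 7 was also the library with the highest summed macrophage and monocyte markers, 8588 CPM over 14 genes, against 0.118 to 1978 CPM in TetHighProg, 0.272 to 1229 CPM in the other TetLowReg libraries and 131 to 688 CPM in TetLowProg. Lyz2, the lysozyme of myeloid cells, held 299515 counts there, Cd68 held 6085, and Cd14 (4941) and Adgre1 (214) were at 0 in the other 8 libraries. Of the defining macrophage markers, C1qa was at 0 in every library and Csf1r held 9 counts in this library. In it 6 of the 14 markers were found. Their part in the Ccl3 value was not tested.

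Cxcr6, the receptor for the membrane-bound chemokine CXCL16 (chr9:123635534-123640825, plus strand, inside the span of Fyco1 on the other strand with no shared exon base), was found in the same 4 libraries as Ccl4 and Ccl5. It was at 0 counts in every TetHighProg library. TetLowReg replicates 6, 7 and 8 held 0, 2993 and 4811 counts, or 0, 82.2 and 293 CPM. TetLowProg replicates 9, 10 and 12 held 4617, 0 and 12869 counts, or 127, 0 and 409 CPM. Set against the T cell markers of the same library, Cxcr6 held 46.7 and 98.9 counts per 1000 T cell marker counts in replicates 7 and 8 of TetLowReg, and 13.3 and 93.1 in replicates 9 and 12 of TetLowProg. On that scale TetLowProg replicate 9 was the lowest of the 4. The other libraries of the 4 held the B cell markers Cd79b and Ms4a1, and the part of other cells in these values was not tested.

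Cxcr3, the receptor for CXCL9, CXCL10 and CXCL11 (chrX:100775141-100777875, minus strand), had a pattern of its own. It held 9281 counts (409 CPM) in TetHighProg replicate 5 and 4088 counts (112 CPM) in TetLowProg replicate 9. It was at 0 in the other 7 libraries, including TetLowReg replicates 7 and 8 with 8004 and 7234 genes found. The groups overlapped at 0 in every comparison (mean difference between TetLowProg and TetHighProg -98.9 CPM, two-sided exact permutation p = 1). Cxcr3 is thus the member of the 9 with its highest value in a high avidity library.

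Cxcr4, the receptor for CXCL12 (chr1:128515936-128520044, minus strand), was the most widely found member. TetHighProg replicates 1, 2 and 5 held 1, 0 and 258 counts, or 0.0299, 0 and 11.4 CPM. In TetLowReg, replicates 6, 7 and 8 held 0, 2300 and 177 counts, or 0, 63.1 and 10.8 CPM. TetLowProg replicates 9, 10 and 12 held 6004, 581 and 2709 counts, or 165, 23.1 and 86.0 CPM. Every TetLowProg library lay above every TetHighProg library, at 91.4 ± 71.2 against 3.80 ± 6.56 CPM (mean ± SD, n = 3 each, two-sided exact permutation p = 0.1, the smallest that 3 against 3 can give). No other member separated these groups, and 6.67% of the 5813 genes tested had every TetLowProg library above every TetHighProg library. TetLowReg overlapped both, at 24.6 ± 33.8 CPM.

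Ccr2, the receptor for CCL2 that is abundant on monocytes and present on effector T cells (chr9:123901982-123913594, plus strand), was found in 3 low avidity libraries. TetHighProg replicates 1, 2 and 5 held 0, 1 and 0 counts. TetLowReg replicates 6, 7 and 8 held 0, 1672 and 5499 counts, or 0, 45.9 and 335 CPM. In TetLowProg it was found only in replicate 12, at 5176 counts or 164 CPM, and replicates 9 and 10 were at 0. TetLowProg replicate 9 lacked it although it held the other receptors Cxcr6, Cxcr3, Cxcr4 and S1pr1.

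The 3 libraries with Ccr2 were those with the B cell markers. Summed over 8 B cell markers, TetLowReg replicates 7 and 8 and TetLowProg replicate 12 held 2904, 2346 and 2797 CPM. TetHighProg held 0.0299 to 6.43 CPM, TetLowReg replicate 6 held 0.0907 CPM and TetLowProg replicates 9 and 10 held 242 and 0.0398 CPM. In TetLowProg replicate 9 the sum came from Ighm alone (8777 counts), with Cd79a, Cd79b and Ms4a1 at 0. In the 3 libraries with Ccr2, 7, 8 and 8 of the 8 markers were found. Lyn, a Src-family kinase of B and myeloid cells, was the gene whose pattern over the 9 libraries was nearest to that of Ccr2, with 3626, 8031 and 5544 counts in those libraries and 0 in the other 6. Hemoglobin transcripts were also found in these 3 libraries, where 5 erythroid markers summed to 31.2, 33.4 and 69.6 CPM, against at most 0.0454 CPM in the other 6. The same 3 libraries held the markers of CD4 and regulatory T cells, 5 genes that summed to 63.9, 38.8 and 60.0 CPM there and to 0 to 2.25 CPM in the other 6. Cd4 led in TetLowReg replicate 7 (2020 counts), Foxp3, which defines regulatory T cells, in TetLowReg replicate 8 (585 counts), and Il2ra (945 counts) with Ikzf2 (944 counts) in TetLowProg replicate 12. The part of other cells in the Ccr2 values was not tested.

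**Figure D2:**
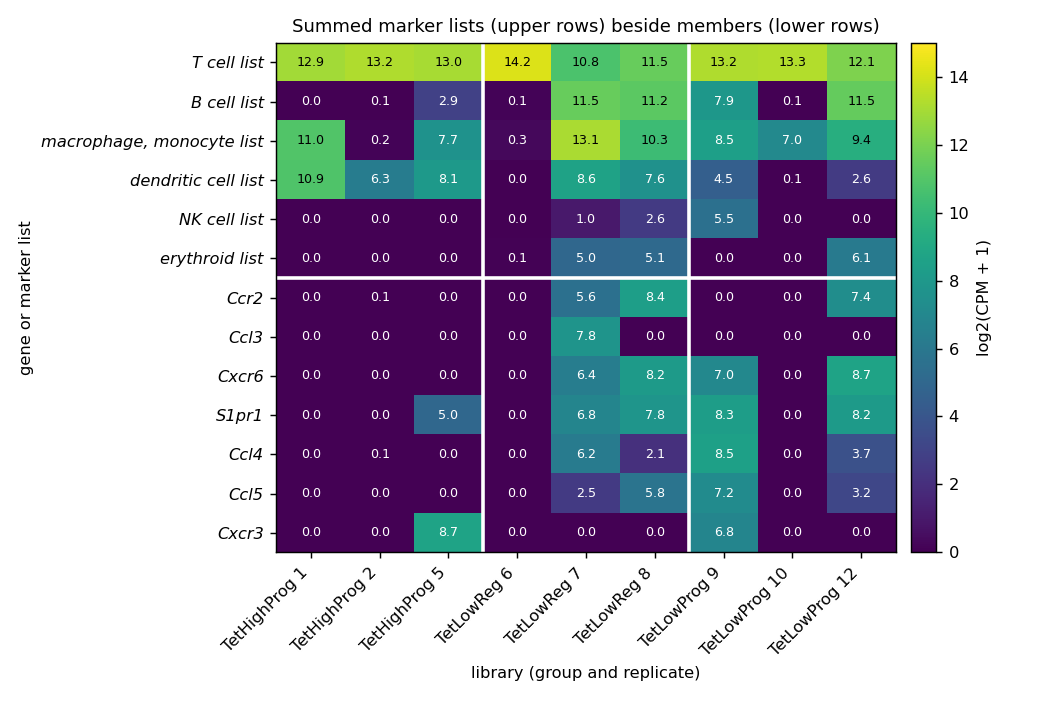
Summed level of marker lists (rows above the line) and level of 7 members (rows below it) in each library, as log2(CPM + 1). The B cell row is at 11.2 to 11.5 in TetLowReg 7, TetLowReg 8 and TetLowProg 12, the libraries with Ccr2, and the macrophage row peaks at 13.1 in TetLowReg 7, the library with Ccl3.

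S1pr1, the egress receptor (chr3:115504071-115508721, minus strand), was found in all 5 libraries outside those with few genes. TetHighProg replicates 1, 2 and 5 held 0, 0 and 698 counts, or 0, 0 and 30.8 CPM. In TetLowReg, replicates 6, 7 and 8 held 0, 4029 and 3669 counts, or 0, 111 and 224 CPM. TetLowProg replicates 9, 10 and 12 held 11620, 0 and 9175 counts, or 320, 0 and 291 CPM. Each of the 4 low avidity values above 0 exceeded the highest TetHighProg value, yet the groups overlapped at 0. Per 1000 T cell marker counts, S1pr1 stood at 3.73 in the TetHighProg library 5. It stood at 62.9 (replicate 7) and 75.4 (replicate 8) in TetLowReg, and at 33.4 (replicate 9) and 66.4 (replicate 12) in TetLowProg. With 1 TetHighProg library on this scale, the difference had no replicate check. The B cell markers Cd79b and Ms4a1 were found in TetLowReg replicates 7 and 8 and TetLowProg replicate 12. TetLowProg replicate 9, which held neither, had the lowest of the 4 low avidity values. The part of other cells in these values was not tested.

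Cx3cr1, the fractalkine receptor (chr9:119877749-119898945, minus strand), held 1 count in TetLowReg replicate 6, 1 in TetLowReg replicate 7 and 0 elsewhere. It was not detectable at this depth, at which 3 counts correspond to 0.0824 to 0.183 CPM per library. Ccl3, Cx3cr1 and S1pr1 share exon bases with long noncoding RNA genes on the other strand that are not in the tables. Because the counting did not use strand, reads of such a pair cannot be told apart.

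**Figure D3:**
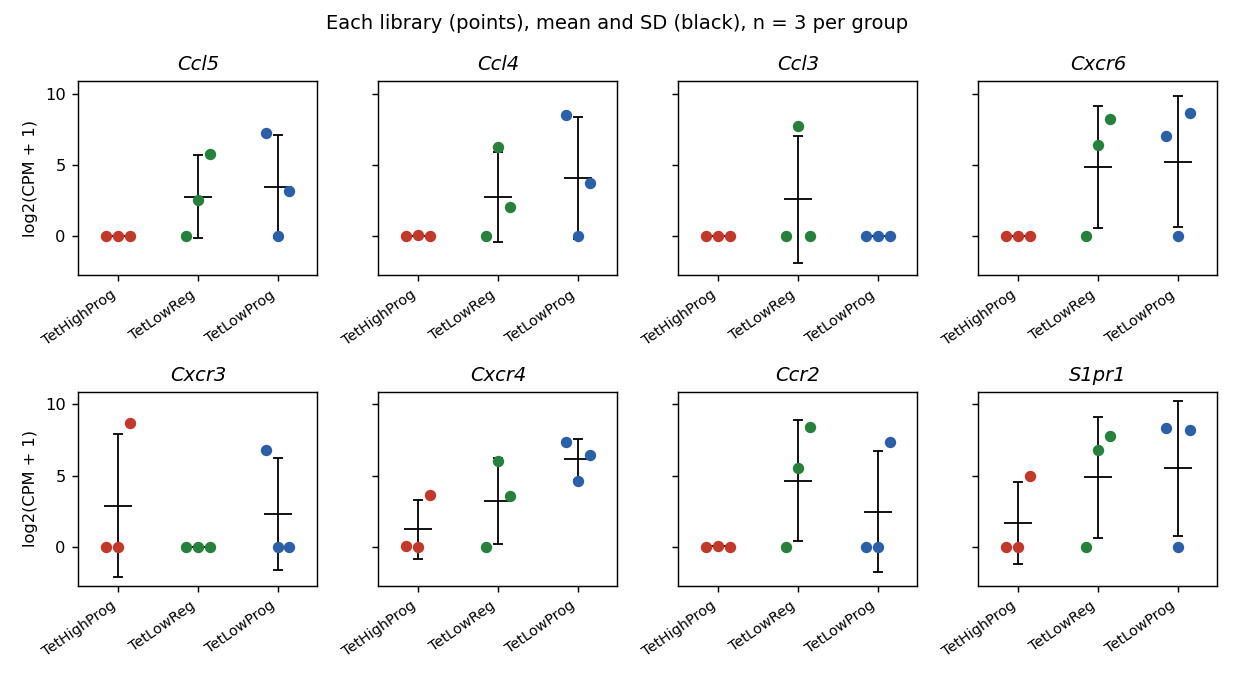
Level of 8 members as log2(CPM + 1) in each library (points, n = 3 per group), with the group mean (bar) and SD (whiskers). Every group of every member except TetLowProg for Cxcr4 includes at least 1 library at or near 0, and the only pair of groups without overlap is TetLowProg above TetHighProg for Cxcr4.

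Levels of the members were set side by side per kilobase of exon, as the median CPM per kb over the libraries where the gene was found. These were 277 for Ccl3 in its 1 library, 151 for Cxcr3 and 108 for Cxcr6. Ccl4 stood at 62.8, S1pr1 at 54.1, Ccl5 at 30.5, Ccr2 at 24.3 and Cxcr4 at 23.7. Ranges were wide, from 65.0 to 236 for Cxcr3, 42.4 to 211 for Cxcr6 and 4.61 to 540 for Ccl4. In TetLowProg replicate 9, the library that held both, Cxcr6 stood at 65.6 and Cxcr3 at 65.0 CPM per kb. The medians come from different libraries, so no order is drawn from them, and Ccl3 has no spread.

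Low and high avidity cells from the tumors were compared first by how many members each library held. TetLowReg replicates 6, 7 and 8 held 0, 7 and 6 members, TetLowProg replicates 9, 10 and 12 held 6, 1 and 6, and TetHighProg replicates 1, 2 and 5 held 0, 0 and 3. The means were 4.33 ± 3.79, 4.33 ± 2.89 and 1 ± 1.73 (SD, n = 3 each). TetLowReg exceeded TetHighProg by 3.33 members (two-sided exact permutation p = 0.4) and TetLowProg exceeded it by 3.33 (exact p = 0.2), while the low avidity groups differed by 0 (exact p = 1). The number of genes found differed between these libraries too, and its part in the counts of members was not tested.

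TetHighProg replicate 5, the high avidity library with 3181 genes found, allowed a comparison without the libraries with few genes. It held Cxcr3, Cxcr4 and S1pr1, and 0 counts of Ccl3, Ccl4, Ccl5, Cxcr6 and Ccr2. Ccl4, Ccl5 and Cxcr6 were 3 of the 5 members found in all 4 low avidity libraries with many genes, and each was at 0 in TetHighProg replicate 5. Of all 3197 genes found in those 4 libraries, 34.2% were at 0 in TetHighProg replicate 5. Of the same 5 members, 4 (Ccl4, Ccl5, Cxcr6 and S1pr1) were under 10 counts in all 4 libraries with few genes, as were 50.6% of the 3197 genes.

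For low avidity cells from regressing tumors against high avidity cells, the edgeR quasi-likelihood test was run on 5813 genes, 6 of them members. Ccl3, Cxcr3 and Cx3cr1 did not pass its filter on low counts. The fitted log2 fold changes (TetLowReg over TetHighProg, ± SE) were 8.40 ± 4.29 for Ccl5 and 8.88 ± 5.37 for Ccl4. Among receptors they were 11.15 ± 4.91 for Cxcr6, 10.72 ± 5.79 for Ccr2, 4.14 ± 4.56 for S1pr1 and 3.66 ± 4.77 for Cxcr4. The standard errors were large beside the fold changes, and the fold changes of genes at or near 0 in TetHighProg depend on the prior count of 2. The median over the 6 members was 8.64, beside 3.52 over all genes tested. Ccl4, Ccl5, Cxcr6 and Ccr2 were at 0 or near it in TetHighProg and passed the filter through low avidity libraries, so that median is not one over all members. Without the filter it was 8.15 over all 9 members, beside 1.31 over 17615 genes, and Cxcr3, highest in TetHighProg replicate 5, stood at -10.62 ± 4.83. Over the same 6 members it was 1.69 beside 0.88 with a term in the model for the libraries with few genes, 6.50 beside 1.52 without TetLowReg replicate 7, 7.41 beside 2.23 without TetLowReg replicate 8 and 9.70 beside 5.80 without TetHighProg replicate 5.

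With edgeR no member was called at an adjusted p under 0.05 and a log2 fold change above 2 (adjusted p from 0.233 to 0.702), and 0.0% of all genes were. At an unadjusted p under 0.05, edgeR had 1 of 6 members higher in TetLowReg (Cxcr6, adjusted p = 0.233), beside 19.0% of genes. That background depended on single libraries: it was 96 to 286 genes, of 6940 to 8509 tested, with any 1 of the 3 TetHighProg libraries, TetLowReg replicates 7 and 8 and TetLowProg replicates 9 and 12 left out. Cxcr6 was not among them without TetHighProg replicate 1 or 5 or TetLowReg replicate 8. Without TetLowReg replicate 6 it was 2400 genes of 8513, with Cxcr6, Ccr2 and Ccl5 among them, and without TetLowProg replicate 10 it was 1989 of 8497, with the same 3 members among the higher genes and Cxcr3 among the lower. With the term for libraries with few genes it was 273 genes of 5813 and 0 members. Limma-voom with sample quality weights, which also weights libraries unequally, called all 6 members higher, beside 41.3% of genes tested. DESeq2 called 3 of the 5 members to which it gave an adjusted p (Ccl5, Cxcr6 and Ccr2), beside 34.1% of genes.

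For low avidity against high avidity cells within progressing tumors, the members had a similar spread of values. The fitted log2 fold changes (TetLowProg over TetHighProg, ± SE) were 8.90 ± 4.45 for Ccl5 and 9.78 ± 5.63 for Ccl4. They were 11.11 ± 4.90 for Cxcr6, 9.15 ± 5.35 for Ccr2, 4.23 ± 4.58 for S1pr1 and 4.43 ± 4.95 for Cxcr4. The median over the 6 members was 9.03, beside 4.27 over all genes. Over all 9 members without the filter it was 4.30, beside 0.18 over all genes, with 6 of the 9 above 0, Cxcr3 at -2.56 ± 4.29 and Ccl3 and Cx3cr1 at 0. Over the same 6 it was 1.70 beside 1.22 with the term for libraries with few genes, 5.88 beside 1.73 without TetLowProg replicate 9, 7.03 beside 3.11 without TetLowProg replicate 12 and 9.48 beside 6.85 without TetHighProg replicate 5. This comparison shares the TetHighProg libraries with the preceding comparison. The Ccr2 value rested on TetLowProg replicate 12, without which it was -0.30 ± 0.46.

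EdgeR called no member here (adjusted p from 0.193 to 0.627) and 0.0% of all genes. At an unadjusted p under 0.05, it had 2 of 6 members higher in TetLowProg, Ccl5 and Cxcr6 (adjusted p = 0.193 for both), beside 24.8% of genes. With any 1 of those same 7 libraries left out, the background was 105 to 283 genes. Then 0 members were below 0.05 without TetHighProg replicate 1 or 5 or TetLowProg replicate 12, and Cxcr6 alone without the other 4. Without TetLowReg replicate 6 it was 2527 genes and without TetLowProg replicate 10 it was 2663, each with Cxcr6 and Ccl5. With the term for libraries with few genes it was 345 genes and 0 members. Limma-voom with sample quality weights called 5 of 6 members higher, all but Ccr2, beside 49.6% of genes. DESeq2 called Ccl5, Cxcr6 and Ccr2, 3 of the 5 members with an adjusted p, beside 42.7% of genes.

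Low avidity cells from progressing and regressing tumors were compared to ask whether tumor outcome went with these transcripts at the same avidity. The fitted log2 fold changes (TetLowProg over TetLowReg, ± SE) lay near 0 with wide errors. They were 0.51 ± 4.23 for Ccl5, 0.89 ± 4.35 for Ccl4, -0.03 ± 4.02 for Cxcr6, -1.57 ± 4.34 for Ccr2, 0.09 ± 4.02 for S1pr1 and 0.78 ± 4.34 for Cxcr4. EdgeR called 0.0% of genes and no member (adjusted p = 1 for each), and at an unadjusted p under 0.05 it had 0 members and 54 genes of either direction. Limma-voom with sample quality weights and DESeq2 also called 0 members, beside 0 of 5813 genes and 83 of 4408 genes (1.88%). With standard errors above 4 on the log2 scale, these values do not show the groups to be alike or to differ.

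**Figure D4:**
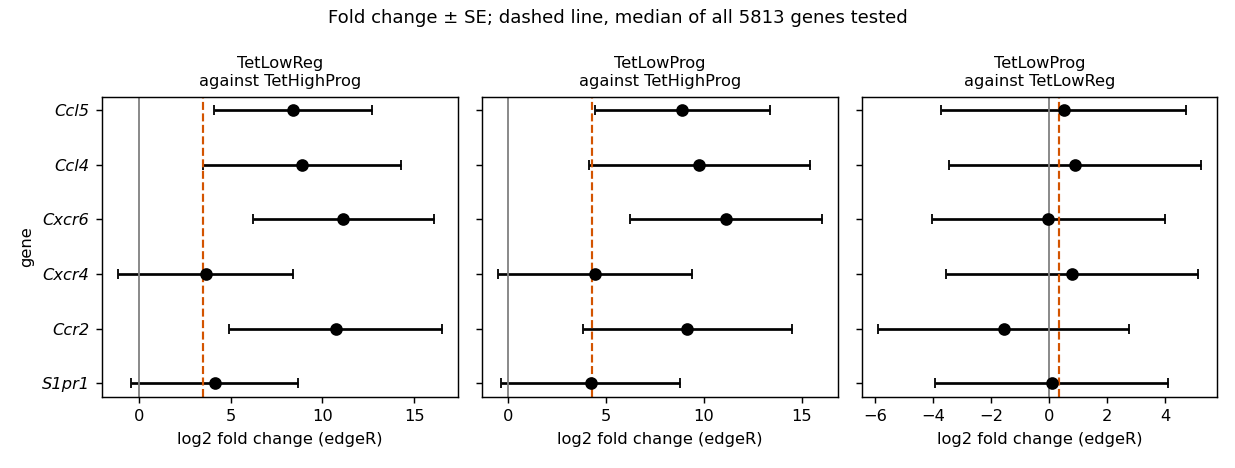
Fitted log2 fold changes (edgeR, points) with their standard errors (whiskers) for the 6 members tested in the 3 comparisons, with the median of all 5813 genes as a dashed line. In both comparisons with TetHighProg, Cxcr6, Ccr2, Ccl4 and Ccl5 lie to the right of the dashed line and S1pr1 and Cxcr4 close to it, and in the third comparison the values scatter around 0.

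The partners of the members were sparse. Ccr1, a receptor for Ccl3 and Ccl5, held 17 counts in TetLowReg replicate 7 and 7 in TetLowProg replicate 12, and it did not pass the filter of edgeR.

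Ligands for the member receptors are mostly made by myeloid, stromal or endothelial cells, and 6 of the 9 in the tables were found in any library, none of them often enough to be tested. Of the CXCR3 ligands, Cxcl9 held 1927 counts in TetLowReg replicate 7, which lacked Cxcr3, and Cxcl10 held 713 counts in TetLowProg replicate 9, which held it. The CCR2 ligands Ccl8 and Ccl12 held 1179 and 764 counts in TetLowReg replicate 7 and were at 0 elsewhere. Cxcl12, the ligand of CXCR4, reached 44 counts in TetLowReg replicate 8, and Cx3cl1, the ligand of CX3CR1, held 65 counts in TetHighProg replicate 5 and 23 in TetLowReg replicate 8.

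Among 15 genes of sphingosine 1-phosphate signaling and lymph node recirculation, 6 were tested by edgeR and none was called in any comparison. Klf2, a transcription factor that drives S1pr1, held 355 counts in TetHighProg replicate 5, 382 and 62 in the TetLowReg replicates 7 and 8, and 9309 and 3827 in the TetLowProg replicates 9 and 12. Cd69, whose product holds S1PR1 inside the cell, stood at 658 CPM (14923 counts) in TetHighProg replicate 5 and at 484 CPM (17589 counts) in TetLowProg replicate 9. It was lower in TetLowReg replicate 7 (156 CPM, 5675 counts) and TetLowProg replicate 12 (109 CPM, 3428 counts), and at 0 in the other 5 libraries. At an unadjusted p under 0.05 (edgeR), 0 of the 6 were higher in TetLowReg and 1 in TetLowProg than in TetHighProg, beside 19.0% and 24.8% of all genes.

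Of 15 other chemokine receptors, Ccr7, the receptor that takes T cells to lymph nodes, was found in 6 libraries. It held 0, 0 and 511 counts in TetHighProg, 1, 20324 and 6337 in TetLowReg and 63999, 38413 and 46920 in TetLowProg. Every TetLowProg library lay above every library of the other groups in CPM, and 2.77% of the genes tested had every TetLowProg library above every TetLowReg library. Ccr7 had log2 fold changes of 7.73 ± 3.86 in TetLowProg over TetHighProg (edgeR, adjusted p = 0.193) and 1.505 ± 2.94 in TetLowProg over TetLowReg (adjusted p = 1), and it was not called. Cxcr5, the B cell and follicular helper T cell receptor, held 3780 and 10157 counts in TetLowReg replicate 8 and TetLowProg replicate 12, libraries with B cell markers. It held 8 counts in TetLowReg replicate 7, which also had B cell markers, and 23 in TetLowProg replicate 9. EdgeR tested 3 of the 15 and called none.

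Of 24 other chemokines, 8 were found and 2 tested, and none was called. TetLowReg replicate 7 was the highest library for Cxcl13 (6165 counts), Cxcl2 (2219) and Ccl6 (1510), whereas Xcl1, a chemokine of activated CD8+ T and NK cells, held 2097 counts in TetLowProg replicate 9. Among 24 genes of chemokine receptor signaling, 17 were tested and none was called, with 3 higher in TetLowReg and 5 in TetLowProg than in TetHighProg at an unadjusted p under 0.05, shares near the 19.0% and 24.8% of all genes. Coro1a, an actin regulator needed for T cell migration, held 0 counts in TetHighProg and 13121 to 83558 in TetLowProg (log2 fold change 13.47 ± 4.61, edgeR adjusted p = 0.193). The other 3 of the list's 4 genes with the highest CPM, the regulators Rgs2, Elmo1 and Gnb1, had log2 fold changes of -2.96, -4.91 and -2.35 in the same comparison, and none was called (adjusted p from 0.363 to 0.692).

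**Figure D5:**
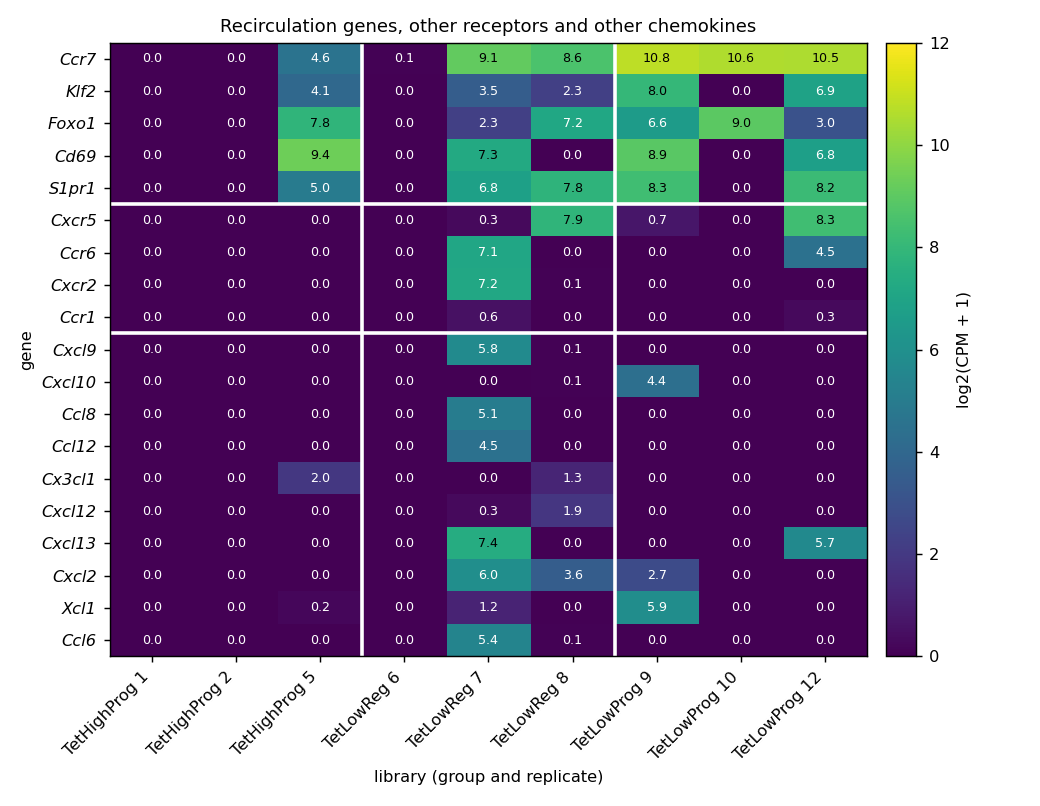
Level of recirculation genes (top), other or partner receptors (middle) and ligands and other chemokines (bottom) in each library as log2(CPM + 1). The Ccr7 row is at 10.5 to 10.8 in the 3 TetLowProg libraries, and Cxcl9, Ccl8 and Ccl12 appear in TetLowReg 7 and Cxcl10 in TetLowProg 9.

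The genes with the nearest pattern were found by the root mean square difference of log2(CPM + 1), each gene centred on its mean over the 9 libraries. Nop10 was nearest to Ccl5 (0.13), Erbin to Ccl4 (0.29) and Ndufs8 to Cxcr6 (0.17). Rab1a was nearest to Cxcr3 (0.46), Prdm2 to Cxcr4 (0.76), Lyn to Ccr2 (0.37) and Lpxn to S1pr1 (0.54). Next in order were Cybc1 for Ccl5 (0.35), Atp5pb for Ccl4 (0.52), Thumpd1 for Cxcr6 (0.32), Poglut1 for Cxcr3 (0.48), Inpp1 for Cxcr4 (0.81), Ilrun for Ccr2 (0.51) and Tmod3 for S1pr1 (0.54). The median difference over all genes was 2.46 to 3.71. The points are 9 libraries that share their differences in genes found, and no test was made.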

How the data were processed

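For each library the authors deposited raw read counts per gene, without normalization, and the submitters' processing notes name STAR 2.7.6a, featureCounts and build GRCm39. The tables have the layout of STAR's own gene counts (4 summary lines, 3 count columns), so which tool assigned the reads is not settled. The annotation release is not given in the sources used here. Of stranded counts, 50.2% to 50.8% fell on one strand, so unstranded counts were used. The 4 summary lines per table were left out. Identifiers were matched to GENCODE M39 (28645 of 32976 genes). CPM is per 1000000 gene counts. Member values of 100 counts or more, the smallest of which was 173 counts, had 95% counting intervals within 15.2%.

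The quasi-likelihood test of edgeR 4.0.16 in R 4.3.3 was fitted over all 3 groups (TMM factors 0.600 to 1.82, default low-count filter, prior count 2). Calls needed p under 0.05 after Benjamini-Hochberg adjustment and a log2 fold change beyond 2 in either direction. Alternatives were DESeq2 1.42.0, limma 3.58.1 (voom with sample quality weights), a term for libraries with few genes, other scaling and filters and leaving out libraries. Exact permutation tests were two-sided. Scripts were tested on simulated data. P-values measure the spread between libraries, which may be partly technical.

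All 9 members are named, with partner ligands and receptors found at 10 counts, at most 4 genes of each other list by highest CPM, and the nearest 2 genes by pattern. The members and lists were chosen with earlier results of these data known. Marker genes beyond this rule (Cd8a, Cd79a, Csf1r, Adgre1, C1qa, Ncr1 and Klrb1c) were named after their values were seen. Some genes of these lists are not reported here.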

Additional observations from a re-analysis of the deposited data

How the results depend on the processing

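The count of 0 genes called by edgeR changed under other fits. For TetLowReg against TetHighProg it was 1841 with DESeq2 at default size factors, 1057 with poscounts, 1131 on the 2 groups alone and 2411 with limma-voom and sample quality weights, a fit that changed tool and weighting together, 2 with edgeR on the 2 groups, 3 without the libraries with few genes, and 0 to 4 with each library left out (4 without TetLowProg replicate 9). For TetLowProg against TetHighProg these were 2370, 932, 1987, 2901, 1 and 3, with 1 for library size in place of TMM and 1 for DESeq2 size factors in edgeR. For TetLowProg against TetLowReg they were 83, 29 and 11 with DESeq2, 1 with edgeR on the 2 groups, and 0 to 2 with each library left out (1 without TetHighProg replicate 2, 2 without TetLowProg replicate 12). The number of members found moved under no alternative by more than its spread. The cause of these differences was not tested.

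Limma-voom and DESeq2 called members that edgeR did not. For TetLowProg against TetHighProg the 3 DESeq2 calls became 1 of 6 with poscounts (Cxcr6), beside 24.9% of genes in either direction. On the 2 groups alone they became 2 of 4 (Cxcr6 and Ccl5), beside 45.8%. For TetLowReg against TetHighProg, Cxcr6, Ccr2 and Ccl5 stayed called in both fits. They were 3 of 6 members with poscounts, beside 27.3% of genes, and 3 of 5 on the 2 groups alone, beside 34.1%. With a term for libraries with few genes 0 genes were called in each comparison. Leaving out the libraries with few genes leaves TetHighProg with 1 library, which is then assumed to vary like the other groups. In that fit edgeR tested 8 members. Their median log2 fold change was 9.51 in TetLowReg over TetHighProg, beside 3.86 over the 12933 genes tested. It was 6.43 beside 3.17 in TetLowProg over TetHighProg and 0.35 beside -0.13 in TetLowProg over TetLowReg. In the same order, 7, 6 and 6 of the 8 members lay above 0. The 6 members tested kept their direction against TetHighProg under all alternatives run, except Ccr2 in TetLowProg without TetLowProg replicate 12 (-0.30 to 9.75 with each library left out), but not their size, Cxcr6 in TetLowReg ranging from 1.78 to 26.5. In TetLowProg against TetLowReg, directions near 0 changed (log2 scale): Ccl4 to -0.70 and S1pr1 to -0.63 with poscounts, and Ccl5 to -1.03 with poscounts and -0.41 with limma-voom. Cxcr6 changed to 0.56 with library size, 0.83 with DESeq2 factors in edgeR, 0.83 and 0.46 with DESeq2 on 3 and 2 groups, 0.10 without a filter, 0.21 with limma-voom, 0.076 without the libraries with few genes and 0.17 without mitochondrially encoded genes. With each library left out, Ccl4 ranged from -2.84 (without TetLowProg replicate 9) to 5.95 (without TetLowReg replicate 7), Ccl5 from -2.41 (without TetLowProg replicate 9) to 3.39, Cxcr6 from -1.52 (without TetLowProg replicate 12) to 1.24, Ccr2 from -10.91 (without TetLowProg replicate 12) to 0.43 and S1pr1 from -0.56 (without TetLowReg replicate 6) to 0.93, the last 4 upper ends being without TetLowReg replicate 8. The strict filter left 1 member to test. No paired analysis was possible because the groups share no replicate numbers in the labels, which link no library to a tumor.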
